A study of Mus musculus with 8 samples.

Results

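The AP-1 family transcription factors were examined in tumour-specific CD8+ T cells: Fos, Fosb, Fosl2, Jun, Junb, Jund, Atf3, Batf, Batf3 and Maff, chosen by gene symbol, 10 of the 23746 rows of each gene table. The 8 libraries came from BALB/c mouse CD8+ T cells that bind the AH1 tetramer, which carries a peptide of an endogenous murine leukaemia virus envelope protein found on BALB/c tumours. The 4 groups, of 2 libraries each, were Cd69-deficient term-diff cells (labelled Cd69KO, term diff), wild-type term-diff cells, Cd69-deficient stem-like cells and wild-type stem-like cells. All were total RNA libraries of live-sorted cells. The labels used here do not give the tumour, how many mice there were, their age or sex, how the subsets were gated, or how the Cd69 allele was made, and no other allele or treatment is named. They also do not say that replicates came from separate mice, so the p-values measure only the spread between these libraries, which may be technical.

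AP-1 is a dimer of basic leucine zipper proteins. Jun proteins pair with themselves or with Fos proteins and bind the TRE, which is TGANTCA with C or G at N. Some partners such as the ATF proteins prefer the related TGACGTCA, known as the CRE. T cell receptor signalling induces several members within minutes through MAP kinases, and NFAT joins AP-1 on composite sites of cytokine genes. BATF lacks the transactivation domain of FOS, pairs with JUN proteins and, with IRF4 or IRF8, binds composite sites that are central to effector CD8+ T cell differentiation. JUN and BATF have both been studied as regulators of T cell exhaustion.

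Expression is given in FPKM, fragments scaled for the length of the transcript and the size of the library, as the authors deposited it. Tests were made with limma on log2(FPKM + 1) over the 9782 genes that reached 1 FPKM in at least 2 libraries, with Benjamini-Hochberg adjustment over all of them and a threshold of 0.05. A difference is term-diff minus stem-like, or Cd69-deficient minus wild type, on that log2 scale ± standard error, and it understates the change of genes at low FPKM. Of the 10 factors, 9 were tested and Batf3 fell under the filter. Every value comes from bulk RNA, where fewer cells of a type and less RNA per cell cannot be told apart.

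The labels were checked against marker genes. Cd69 lay at 2.21 to 2.43 FPKM in Cd69-deficient and 10.4 to 12.9 in wild-type term-diff cells, and at 2.42 to 3.69 in Cd69-deficient and 22.5 to 23.4 in wild-type stem-like cells. Tcf7, the stem-like factor TCF1, was at 0.228 to 0.755 FPKM in term-diff and 40.6 to 64.2 in stem-like libraries, and Havcr2 (TIM-3) at 23.3 to 39.7 in term-diff and 0.847 to 2.29 in stem-like libraries. The 5 CD8 T cell markers summed to 1085 to 1198 FPKM in Cd69-deficient and 791.4 to 859.5 in wild-type term-diff libraries, without overlap. They summed to 951.9 to 988.5 in Cd69-deficient and 836.1 to 958.8 in wild-type stem-like libraries. Between genotypes in term-diff cells their median difference was 0.625, with 0 called and 3 at an unadjusted p under 0.05. The part of this difference in the results was not tested. B cell markers summed to at most 0.889 and neutrophil markers to at most 1.10. Myeloid markers summed to 2.40 to 5.50 FPKM in term-diff and 5.12 to 8.08 in stem-like libraries. Of their 2 tested genes, Cd68 fell by 0.60 in term-diff cells (adjusted p = 0.042), a call kept only without replicate 2 of either term-diff group (adjusted p 0.0740 to 0.122 otherwise). Tumour and stroma markers summed to 5.01 to 7.01 FPKM in term-diff and 11.5 to 15.2 in stem-like libraries, and their 1 tested gene was Pecam1, which fell by 1.12 in term-diff cells (adjusted p = 0.00013). NK cell markers summed to 27.7 to 38.0 FPKM in term-diff and 19.7 to 27.3 in stem-like libraries, with Ncr1 at most 0.375. CD4 and regulatory T cell markers, several of which activated CD8 cells also make, summed to 75.8 to 116 in term-diff and 113 to 122 in stem-like libraries, with Cd4 at most 5.52 and Foxp3 at most 1.14. The B cell gene Cd79a was listed at 0 in both wild-type term-diff libraries. Whether these other cells played a part in the results was not tested. Fragments implied by the deposited confidence intervals summed to 2055402 to 2591061 per library.

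In Fos, Jun and Batf every term-diff library lay under every stem-like library, though Batf was not called within Cd69-deficient cells. The promoters of these 3 factors are shown first. Each runs from 250 bases before to 50 after the RefSeq start site on build GRCm38.p6. Capitals mark TGACG, the core of the CRE, in Fos (chr12:85473640-85473939, plus strand) and Batf (chr12:85686470-85686769, plus strand), and TGACATCA, a CRE variant, in Jun (chr4:95052173-95052472, minus strand).
Fos: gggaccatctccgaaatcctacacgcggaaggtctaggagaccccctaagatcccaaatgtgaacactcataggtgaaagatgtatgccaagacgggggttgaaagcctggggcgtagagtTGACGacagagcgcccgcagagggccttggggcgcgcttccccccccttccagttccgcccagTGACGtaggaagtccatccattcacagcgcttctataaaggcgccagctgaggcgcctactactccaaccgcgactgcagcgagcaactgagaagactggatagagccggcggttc
Jun: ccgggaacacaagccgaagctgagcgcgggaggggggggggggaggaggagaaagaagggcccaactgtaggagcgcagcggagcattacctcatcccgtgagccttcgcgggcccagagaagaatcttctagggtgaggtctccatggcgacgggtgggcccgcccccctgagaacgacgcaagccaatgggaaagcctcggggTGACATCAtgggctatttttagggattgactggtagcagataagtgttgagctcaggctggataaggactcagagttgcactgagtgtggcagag
Batf: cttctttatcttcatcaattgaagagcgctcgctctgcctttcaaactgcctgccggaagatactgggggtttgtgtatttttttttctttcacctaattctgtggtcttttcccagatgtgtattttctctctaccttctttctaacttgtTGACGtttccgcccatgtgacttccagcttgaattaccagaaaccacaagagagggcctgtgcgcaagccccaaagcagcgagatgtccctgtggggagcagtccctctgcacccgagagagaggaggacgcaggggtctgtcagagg
In the Fos window the TGACG matches began 129 and 66 bases before the start site, and TATAAA 33 bases before it. The Jun match began 45 bases before its start site and the Batf match 98 bases before it.

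All 10 factors matched the RefSeq promoter table, with 12 windows of 300 bases, and motifs were searched on both strands. TGACG, which is also part of every TGACGTCA, was in 7 of the 12 windows, those of Atf3, Batf, Fos, Fosb and Junb and both of Maff, against 20.8% of all 32851 promoters. TGACATCA was in 2 windows (Jun and Maff) against 3.62% of all, and TGACGTCA in 1 (Maff) against 1.79%. TGANTCA, searched with any base at N and so wider than the TRE, was in 0 of 12 windows against 7.81% of all promoters. TATAAA was in 2 (Fos and Junb) against 13.6%. A match is a description of letters, and binding was not measured here. Fos and Batf lie near each other on chromosome 12 of GRCm38.p6, at 85473890-85477274 and 85686720-85709087.

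The tumour-specific cells carried mainly Jun family transcripts. Because FPKM is scaled by length, levels can be set side by side between genes. Over the 8 libraries Junb averaged 123 FPKM (108 to 139), Jund 62.0 (53.5 to 67.4), Fosl2 54.1 (35.5 to 85.2) and Jun 26.5 (14.7 to 40.0). The ranges of Jund and Fosl2 overlapped, and Junb lay above every other factor in every library. Batf at 13.7 FPKM, Fosb at 12.4 and Fos at 11.3 overlapped in range. Atf3, a stress-induced ATF factor, averaged 2.34 FPKM, and Maff, a small Maf protein without a transactivation domain, 2.00.

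Batf3, the BATF relative best known for dendritic cell development, was listed at 0 in 6 libraries. It had 0.229 and 0.232 FPKM in the Cd69-deficient stem-like libraries, each equal to 1 implied fragment, which is too little to read.

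**Figure D1:**
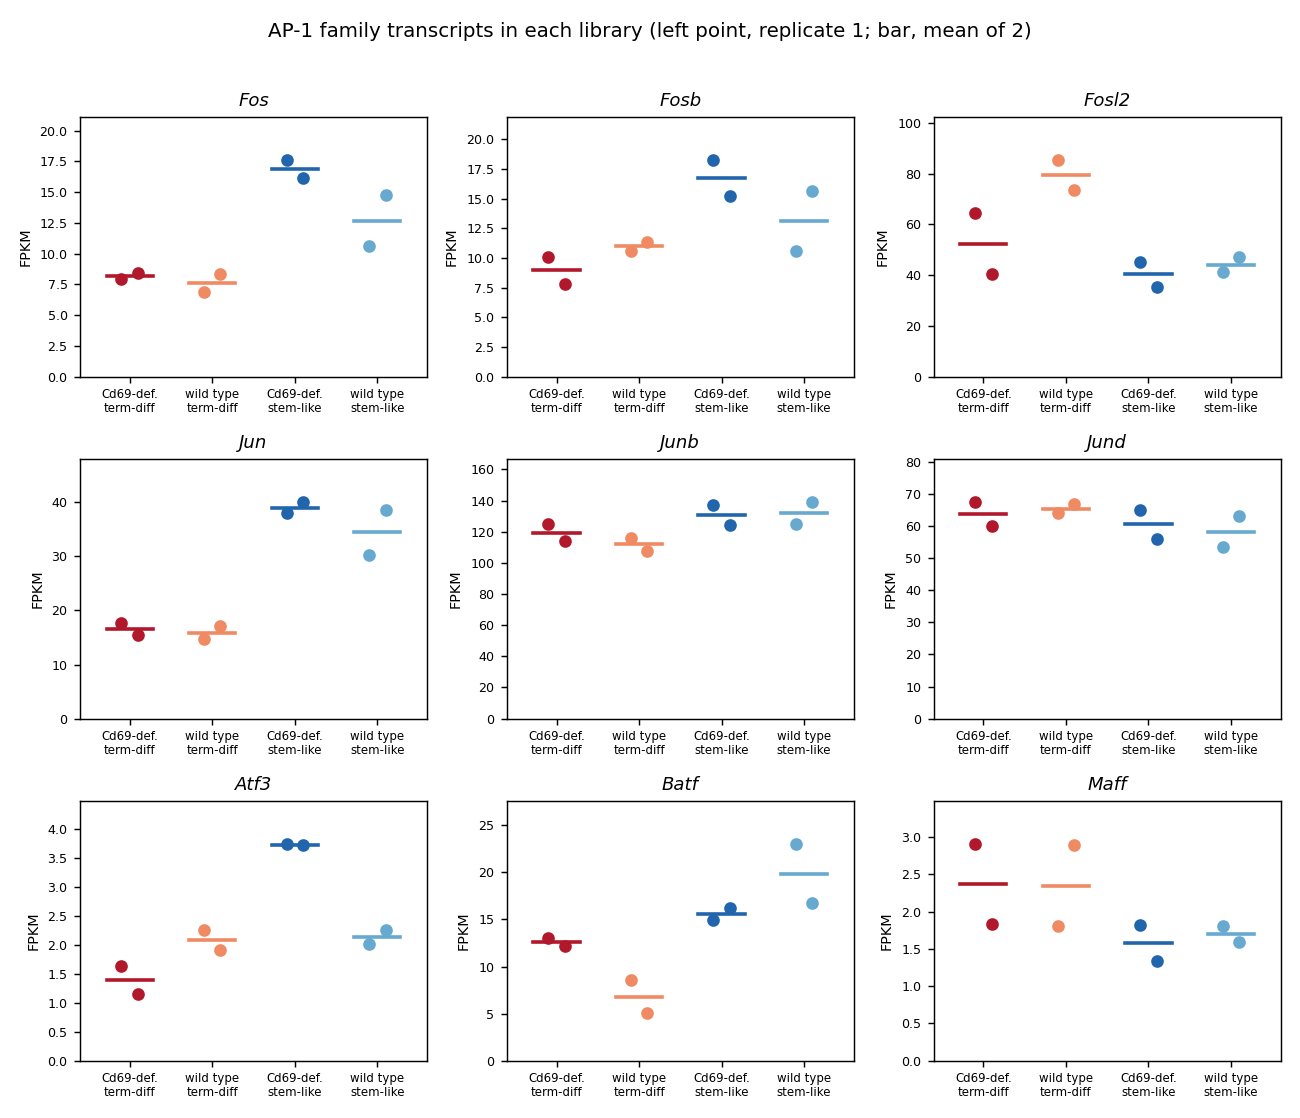
FPKM (y axis, from 0) of the 9 tested factors in each library, by group; points are libraries and bars the mean of 2. Fos, Jun and Batf lie lower in every term-diff than in every stem-like library, while Junb and Jund show no such separation.

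Jun and Fos transcripts were lower in term-diff cells in both genotypes. Jun, the partner of the FOS proteins, had 17.7 and 15.4 FPKM in Cd69-deficient and 14.7 and 17.1 in wild-type term-diff libraries, against 38.0 and 40.0 in Cd69-deficient and 30.2 and 38.6 in wild-type stem-like libraries. The highest term-diff library lay at 17.7 and the lowest stem-like library at 30.2. Jun fell in term-diff cells by 1.19 ± 0.15 (adjusted p = 0.0026) in the Cd69-deficient comparison and by 1.06 ± 0.15 (adjusted p = 0.0035) in wild type. No call for Jun ended when any 1 library was left out.

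Fos, the founding immediate early gene of the family, had 7.96 and 8.43 FPKM in Cd69-deficient and 6.85 and 8.36 in wild-type term-diff libraries, against 17.6 and 16.2 in Cd69-deficient and 10.6 and 14.7 in wild-type stem-like libraries. All 4 term-diff libraries lay under all 4 stem-like libraries. Averaged over the genotypes, with 117 to 282 implied fragments per library, Fos fell by 0.81 ± 0.12 (adjusted p = 0.0021), and that call held without any 1 library. Within Cd69-deficient cells it fell by 0.96 ± 0.17 (adjusted p = 0.010), a call lost without Cd69-deficient stem-like replicate 1 or either Cd69-deficient term-diff library (adjusted p 0.0551 to 0.0816). Within wild type it fell by 0.66 ± 0.17 (adjusted p = 0.036), a call lost without any 1 library other than wild-type stem-like replicate 1 (adjusted p 0.0559 to 0.163).

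Fosb, a second FOS protein induced with Fos, had 10.1 and 7.81 FPKM in Cd69-deficient and 10.6 and 11.3 in wild-type term-diff libraries, against 18.2 and 15.2 in Cd69-deficient and 10.6 and 15.6 in wild-type stem-like libraries. Only the Cd69-deficient groups were fully separated. There Fosb fell by 0.83 ± 0.19 (adjusted p = 0.033), a call that ended without any 1 of the 4 Cd69-deficient libraries (adjusted p 0.0609 to 0.203). In wild type the difference was -0.22 ± 0.19 (adjusted p = 0.52, 95% interval -0.66 to 0.23). The difference between these differences, the interaction, was -0.62 (adjusted p = 0.55), so the subset effect was not shown to differ by genotype. Averaged over genotypes Fosb fell by 0.52 ± 0.14 (adjusted p = 0.029), a call that ended on leaving out wild-type stem-like replicate 2, Cd69-deficient stem-like replicate 1, either wild-type term-diff library or Cd69-deficient term-diff replicate 2 (adjusted p 0.0608 to 0.101).

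Fosl2 (FRA2), a FOS relative that lacks the strong transactivation domain of FOS, was the one factor called higher in term-diff cells. It had 64.4 and 40.4 FPKM in Cd69-deficient and 85.2 and 73.7 in wild-type term-diff libraries, against 45.2 and 35.5 in Cd69-deficient and 41.2 and 47.0 in wild-type stem-like libraries. Wild-type libraries were separated and Cd69-deficient libraries overlapped. In wild type Fosl2 rose by 0.83 ± 0.23 (adjusted p = 0.047), a call that ended without any 1 library other than the 2 Cd69-deficient term-diff libraries (adjusted p 0.0586 to 0.178). The Cd69-deficient difference was 0.34 ± 0.23 (adjusted p = 0.40, 95% interval -0.18 to 0.86). Averaged over genotypes it rose by 0.59 ± 0.16 (adjusted p = 0.034), a call kept only without Cd69-deficient stem-like replicate 1 or Cd69-deficient term-diff replicate 2 (adjusted p 0.0541 to 0.105 otherwise) and lost with quantile normalization (adjusted p = 0.0779).

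Junb and Jund, which encode the other JUN proteins, showed no called difference between subsets. Junb had 125 and 114 FPKM in Cd69-deficient and 116 and 108 in wild-type term-diff libraries, against 137 and 125 in Cd69-deficient and 125 and 139 in wild-type stem-like libraries. Its averaged difference was -0.18 (adjusted p = 0.28, 95% interval -0.43 to 0.07). Jund lay between 60.0 and 67.4 FPKM in term-diff and between 53.5 and 65.1 in stem-like libraries, with an averaged difference of 0.12 (adjusted p = 0.47, 95% interval -0.12 to 0.36). These intervals leave out changes as large as that of Jun. Within wild type alone, the term-diff libraries lay under the stem-like ones in Junb and above them in Jund, with neither difference called.

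Atf3, which dimerizes with JUN proteins, had 1.63 and 1.15 FPKM in Cd69-deficient and 2.25 and 1.92 in wild-type term-diff libraries, against 3.74 and 3.73 in Cd69-deficient and 2.02 and 2.26 in wild-type stem-like libraries. The Cd69-deficient groups were separated and the wild-type groups overlapped. Atf3 fell by 0.99 ± 0.15 in Cd69-deficient term-diff cells (adjusted p = 0.0054), while the wild-type difference was -0.03 (adjusted p = 0.93, 95% interval -0.36 to 0.31). The average over genotypes was -0.51 ± 0.10 (adjusted p = 0.010). Only 16.0 to 56.1 implied fragments per library stood behind these values.

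Batf had 13.1 and 12.2 FPKM in Cd69-deficient and 8.54 and 5.01 in wild-type term-diff libraries, against 14.9 and 16.2 in Cd69-deficient and 23.0 and 16.8 in wild-type stem-like libraries. Each term-diff library lay under each stem-like library. In wild type Batf fell by 1.45 ± 0.22 (adjusted p = 0.0050). The Cd69-deficient difference was -0.28 ± 0.22 (adjusted p = 0.48, 95% interval -0.79 to 0.23), and averaged over genotypes Batf fell by 0.86 ± 0.16 (adjusted p = 0.0064). No call for Batf or Atf3 ended when any 1 library was left out. Without the filter on low values both Batf calls were lost (adjusted p = 0.0704 in wild type and 0.0702 in the average).

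Maff, a dimer partner that can repress, had 2.90 and 1.84 FPKM in Cd69-deficient and 1.80 and 2.89 in wild-type term-diff libraries, against 1.82 and 1.33 in Cd69-deficient and 1.81 and 1.59 in wild-type stem-like libraries. Its averaged difference was 0.33 (adjusted p = 0.17). The wild-type groups overlapped, while the Cd69-deficient term-diff libraries lay above the Cd69-deficient stem-like ones, a difference that was not called.

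Counted together, 4 of 9 tested factors passed in wild type, 1 higher and 3 lower, where 13.1% of all genes passed (7.24% higher and 5.83% lower). In Cd69-deficient cells 4 of 9 were called, all lower, where 9.45% of all genes were (3.88% higher and 5.56% lower). Averaged over genotypes, a comparison that shares its libraries with both of the others, 6 of 9 were called, 1 higher and 5 lower, against 20.5% of all genes (10.5% higher and 9.93% lower). The median difference over the factors was -0.51 in that average, beside 0.02 over all genes tested. It was nearer to the all-gene median within each genotype, at -0.22 in wild type (all genes 0.06) and -0.28 in Cd69-deficient cells (all genes -0.03). Fos, Jun and Batf were the 3 of 9 whose term-diff libraries all lay under the stem-like libraries, which held for 11.1% of all genes. Every one of these calls ended when libraries were rescaled to equal FPKM sums, which are set largely by loci of at most 300 bases (Jun averaged -1.22, adjusted p = 0.282). Without the filter on low values, Jun alone stayed called in wild type, Jun and Atf3 in Cd69-deficient cells, and Fos, Jun and Atf3 in the average. Over 19 to 21 alternatives each, wild-type calls were lost in 12 for Fosl2, 11 for Fos, 2 for Batf and 1 for Jun. Calls in Cd69-deficient cells were lost in 7 for Fosb, 5 for Fos, 1 for Jun and 1 for Atf3. Calls in the average were lost in 10 for Fosl2, 8 for Fosb, 2 each for Atf3 and Batf, and 1 each for Fos and Jun.

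**Figure D2:**
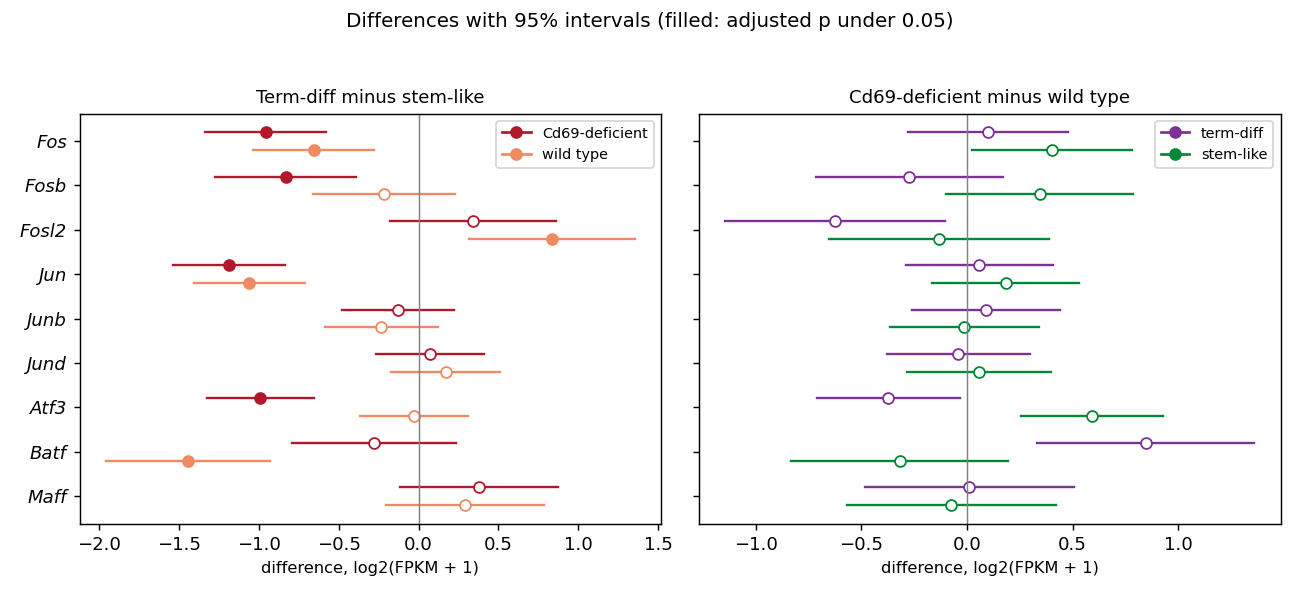
Differences on the log2(FPKM + 1) scale (x axis) with 95% intervals for the 9 tested factors, term-diff minus stem-like on the left and Cd69-deficient minus wild type on the right; filled points have an adjusted p under 0.05. Subset differences of Jun, Fos, Fosb, Atf3, Batf and Fosl2 are filled in at least 1 genotype, and no genotype difference is.

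Ratios within a library do not depend on scaling a whole library by a single value, though quantile normalization can change them. Fosl2 over Jun was 3.63 and 2.62 in Cd69-deficient and 5.80 and 4.31 in wild-type term-diff libraries, against 1.19 and 0.887 in Cd69-deficient and 1.36 and 1.22 in wild-type stem-like libraries. The 4 term-diff libraries all lay above the 4 stem-like libraries, and the wild-type term-diff pair was highest. Jun over Jund was 0.229 to 0.263 in term-diff libraries and 0.566 to 0.713 in stem-like libraries, again without overlap. Fosl2 over Fos was 4.79 to 12.4 in term-diff and 2.19 to 3.89 in stem-like libraries. Batf over Jun overlapped, at 0.293 to 0.791 in term-diff and 0.393 to 0.760 in stem-like libraries. Jun and Fos were already separated by subset on their own, and how common separated ratios are among other genes was not tested. The separated ratios show unequal change, not which of the pair moved.

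As a share of the summed FPKM of the 10 factors, the Jun family held 62.9% to 72.5% in term-diff and 70.1% to 71.4% in stem-like libraries. The Fos family held 26.6% and 21.7% in the Cd69-deficient term-diff libraries, against 33.1% and 31.7% in the wild-type ones. It held 23.7% and 21.6% in the Cd69-deficient stem-like libraries, against 20.9% and 22.8% in the wild-type ones. Only the wild-type term-diff pair stood clear of the other libraries. Batf with Atf3 held 3.48% and 2.35% there, the lowest of the 8 libraries, and 4.74% to 8.39% elsewhere.

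**Figure D3:**
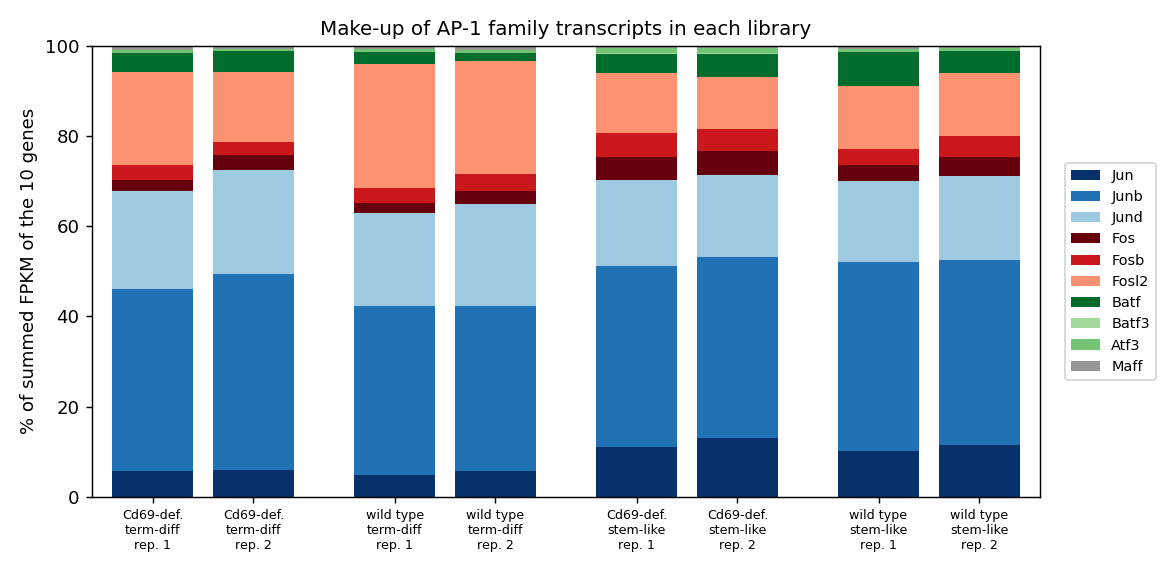
Share (%) of the summed FPKM of the 10 factors taken by each of them, 1 bar per library, with Jun family in blue, Fos family in red, Batf, Batf3 and Atf3 in green and Maff in grey. Fosl2 takes its largest share in the 2 wild-type term-diff libraries, and Jun takes more in every stem-like than in every term-diff library.

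Between genotypes no factor passed the threshold. In term-diff cells 0 of 9 were called, where 0.194% of all genes were, with 3 at an unadjusted p under 0.05 (Fosl2, Atf3 and Batf), as were 15.1% of all genes. In stem-like cells 0 of 9 were called, where 0.153% of all genes were, with 2 at an unadjusted p under 0.05 (Fos and Atf3) beside 7.26% of all genes. Averaged over subsets 0 of 9 were called, where 0.542% of all genes were, with 1 at an unadjusted p under 0.05 (Fosl2) beside 12.4% of all genes. The interaction called 0 of 9, where 0.0307% of all genes were called, with 2 at an unadjusted p under 0.05 (Atf3 and Batf) beside 9.09% of all genes.

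Batf and Atf3 were ordered differently by genotype in the 2 subsets. Batf was higher in both Cd69-deficient than in both wild-type term-diff libraries (0.85 ± 0.22, adjusted p = 0.19), and lower in both Cd69-deficient than in both wild-type stem-like libraries (-0.32, adjusted p = 0.82). Atf3 was lower in Cd69-deficient than wild-type term-diff libraries (-0.37 ± 0.15, adjusted p = 0.30) and higher in Cd69-deficient than wild-type stem-like libraries (0.59 ± 0.15, adjusted p = 0.36), without overlap in either. Fosl2 was lower in both Cd69-deficient than in both wild-type term-diff libraries (-0.62 ± 0.23, adjusted p = 0.28), as was Fosb (-0.27, adjusted p = 0.52). Fos was higher in both Cd69-deficient than in both wild-type stem-like libraries (0.40, adjusted p = 0.65). None of these passed the adjusted threshold. Of the 9 factors, 1 was higher and 3 were lower without overlap in term-diff cells, and 2 were higher and 1 lower in stem-like cells. Libraries without overlap were common, since in term-diff cells 19.7% of all genes were higher and 28.1% lower in both Cd69-deficient libraries, and in stem-like cells 26.3% were higher and 11.5% lower.

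Batf rested on few fragments, and the genes nearest to its pattern over the libraries included Rpph1 and Rmrp. Counting error alone gave the lower wild-type term-diff Batf value, from 31.9 implied fragments, a 95% interval of 3.24 to 6.79 FPKM. The genes whose pattern over the 8 libraries lay nearest to Batf, by the root mean square difference of centred log2 values, were Rpph1 (0.136) and Rmrp (0.189), the RNA parts of RNase P and RNase MRP, then Clec2d (0.213), where the SD of Batf was 0.574. Rpph1 had 4266 and 4188 FPKM in Cd69-deficient and 2566 and 1595 in wild-type term-diff libraries, against 4122 and 4261 in Cd69-deficient and 6998 and 4213 in wild-type stem-like libraries. Loci of at most 300 bases took 83.6% and 83.6% of all FPKM in Cd69-deficient and 78.6% and 54.5% in wild-type term-diff libraries, and 76.5% and 83.6% in Cd69-deficient and 79.2% and 61.3% in wild-type stem-like libraries. The part of this content in the Batf values was not tested. With libraries rescaled to equal FPKM sums the term-diff genotype difference of Batf was -0.11, where the median of all genes was -0.91 (0.85 and -0.05 as deposited).

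**Figure D4:**
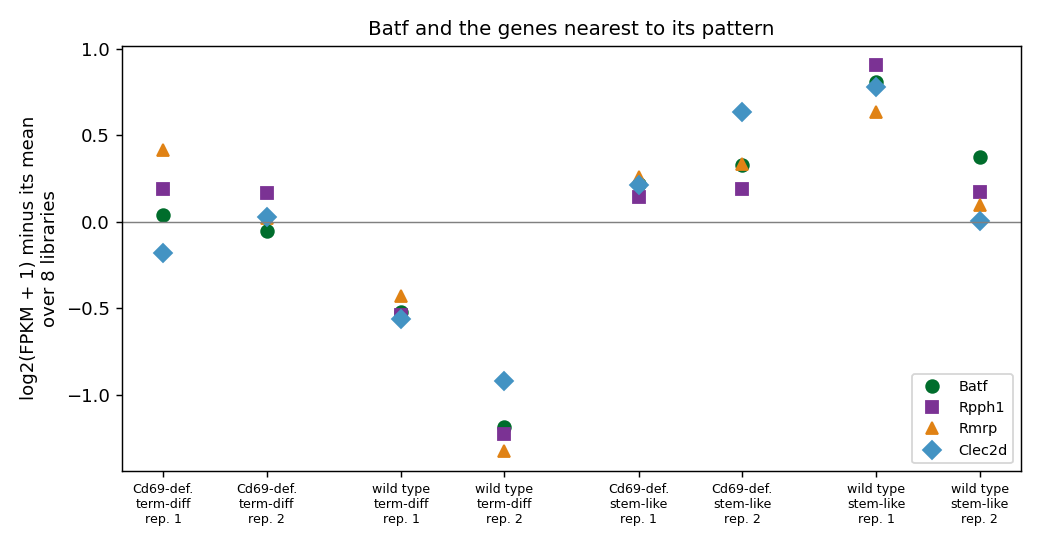
Log2(FPKM + 1) minus its mean over the 8 libraries (y axis) for Batf, Rpph1, Rmrp and Clec2d in each library (x axis). All 4 genes are lowest in the 2 wild-type term-diff libraries and highest in a stem-like library. Rpph1, Rmrp and Clec2d were chosen for their nearness to Batf over these same libraries.

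Among the genes nearest to Jun (SD 0.578) were Gpr18 (0.059), a lipid-sensing receptor gene, and Ptprs (0.0861), a receptor tyrosine phosphatase. Gpr18 had 7.01 to 7.85 FPKM in term-diff and 15.0 to 20.0 in stem-like libraries. Each such gene was chosen for its nearness to a factor over these same libraries, so a likeness in subset difference was set by the choice. Those nearest to Fos (SD 0.449) were Fam168a (0.0827), Slc29a3 (0.0999) and Tlk1 (0.11). Those nearest to Atf3 (SD 0.366) were Nt5c2 (0.146), Ccnd2 (0.15) and Gm13807 (0.154), and Ccnd2, which encodes cyclin D2, had 12.2 to 16.4 FPKM in term-diff and 20.1 to 29.1 in stem-like libraries.

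Of 11 other AP-1 and Maf genes, 6 were tested (Atf2, Atf7, Jdp2, Mafa, Mafg and Mafk) and 0 were called in any comparison, with 1 at an unadjusted p under 0.05 in the averaged subset comparison, beside 33.9% of all genes. Among 19 tested zipper factors outside AP-1, 4 were called higher and 1 lower in term-diff cells averaged over genotypes. In that comparison, which the counts of the other gene lists also use, 20.5% of all genes were called, 10.5% higher and 9.93% lower. Cebpb, a C/EBP factor, rose by 1.76 ± 0.13 (adjusted p = 7.6e-05), Crem, a cAMP-responsive factor, by 1.35 ± 0.11 (adjusted p = 0.00014), and Nfil3 by 0.89 ± 0.13 (adjusted p = 0.0021). Bach2, a repressor that competes with JUN proteins for DNA and restrains effector differentiation, fell by 1.54 ± 0.11 (adjusted p = 6.2e-05), with 2.62 and 3.06 FPKM in Cd69-deficient and 2.50 and 2.89 in wild-type term-diff libraries, against 9.14 and 11.2 in Cd69-deficient and 8.61 and 10.9 in wild-type stem-like libraries.

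Of 24 tested kinases and ternary complex factors upstream of AP-1, 4 were higher and 3 lower in that average. Elk4, a ternary complex factor of the Fos promoter, fell by 0.56 ± 0.10 (adjusted p = 0.0054). Mef2a, a MADS-box factor, rose by 0.69 ± 0.09 (adjusted p = 0.0015) and Map2k3, a p38 kinase kinase, by 0.65 ± 0.14 (adjusted p = 0.013).

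Among the 6 NFAT and IRF partners, 1 was higher and 2 were lower. Irf8 rose in term-diff cells by 0.85 ± 0.09 (adjusted p = 0.00039), and fell by 0.73 in Cd69-deficient cells averaged over subsets (adjusted p = 0.015). It averaged 36.6 ± 3.46 FPKM in Cd69-deficient and 56.3 ± 2.73 in wild-type term-diff cells, and 18.2 ± 1.21 in Cd69-deficient and 33.5 ± 1.26 in wild-type stem-like cells (SD, n = 2 each). Its genotype difference in stem-like cells alone did not pass (-0.85, adjusted p = 0.067), and its genotype call was not set against the alternatives. In the other lists Vim (0.79, adjusted p = 0.022), Ier3 (1.12, adjusted p = 0.021), Ikzf2 (-0.96, adjusted p = 0.012) and Cd69 were also called by genotype averaged over subsets. Irf4 fell in term-diff cells by 0.60 ± 0.11 (adjusted p = 0.0068) and Nfat5 fell by 0.90 ± 0.09 (adjusted p = 0.00039).

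Of 26 immediate early genes outside AP-1, 3 were higher and 8 lower in term-diff cells. Cyr61, a secreted matricellular protein, fell by 2.87 ± 0.16 (adjusted p = 1.9e-05), Egr3 by 1.52 ± 0.13 (adjusted p = 0.00015) and Zfp36l1, an RNA-binding decay factor, by 1.03 ± 0.11 (adjusted p = 0.00044). Dusp5, an ERK phosphatase, rose by 1.46 ± 0.14 (adjusted p = 0.00026). Among 9 tested genes with textbook AP-1 sites, 1 was higher and 5 lower. The lower ones include Cd69 itself, the gene altered in the Cd69-deficient libraries. Cd69 fell by 0.93 in wild type (adjusted p = 0.011), while its Cd69-deficient difference was -0.27 (adjusted p = 0.38). Vim (vimentin) rose by 1.07 ± 0.11 (adjusted p = 0.00034), while Il2ra (the IL-2 receptor alpha chain) fell by 1.25 ± 0.13 (adjusted p = 0.00039), Plaur (the urokinase receptor) by 1.28 ± 0.17 (adjusted p = 0.0012) and Csf2 (GM-CSF) by 1.32 ± 0.22 (adjusted p = 0.0041). Of 11 heat shock genes, 0 were called in that average, with 2 at an unadjusted p under 0.05.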

How the data were processed

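RNA was measured in 8 libraries, 2 in each group of genotype and subset. Per the labels' protocols, libraries of live-sorted cells were made with a stranded, low-input total RNA kit and read single-end. The authors deposited FPKM per gene with confidence limits. Tools named in the submitters' processing notes are Cufflinks 2.2.1, TopHat 1.3.2, Bowtie2 2.3.4 and bcl2fastq 2.20, with build mm10. Annotation, strand setting and FPKM denominator are not given in the sources used here, so reads of overlapping antisense genes cannot be told apart. For 5 values, in 3 rows, the status was not OK; these rows were left out. Each of the 10 factors had 1 row.

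Values were taken as log2(FPKM + 1) without further scaling. The 9782 rows that reached 1 FPKM in 2 or more libraries were fitted with limma 3.58.1 in R 4.3.3 as 4 group means, using empirical Bayes with a trend (residual degrees of freedom 4, prior 4.2). Tests were 2-sided with Benjamini-Hochberg adjustment over all genes tested. The method was tested on simulated data. Implied fragments stand for depth and cover counting error only: they are the squared ratio of the FPKM to one standard error, which is the distance to the upper 95% limit divided by 2. The members, gene lists and naming rule were chosen with earlier results of these data known. The rule named all 10 factors, up to 4 called genes per other list, and the 3 genes nearest in pattern to each of 4 called factors; other genes named singly were added after their values were seen. Some genes that the rule takes are not reported here. Alternatives changed the pseudocount, filter, scaling, variance model, replicate block, threshold and libraries.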

Additional observations from a re-analysis of the deposited data

Results flagged for a closer look

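Atf3 and Batf had libraries that were fully separated by genotype in opposite directions in the 2 subsets. For Atf3, the genotype difference in term-diff cells minus that in stem-like cells was -0.96 (limma interaction, adjusted p = 0.54). For Batf it was 1.17 (adjusted p = 0.54). Neither passed the adjusted threshold. The share of all genes separated in opposite directions was not counted. Within term-diff cells 19.7% of all genes were higher and 28.1% lower in both Cd69-deficient libraries, and within stem-like cells 26.3% and 11.5%.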

How the results depend on the processing

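Alternatives gave 735 results for 36 of the fitted factor differences, 19 to 21 each. Of these, 656 kept direction and side of the threshold, 64 lost a call and 15 changed direction. Only called differences could lose one. Leaving out 1 library in turn left 2 to 3 called in wild type (4 as reported), 2 to 4 in Cd69-deficient cells (4) and 4 to 5 in the average (6). Equal FPKM sums left 0 in each of the 3 subset comparisons, and moved the median of all genes to 0.20 in wild type, -0.31 in Cd69-deficient cells, and between genotypes to -0.39 in stem-like and -0.91 in term-diff cells (as deposited 0.06, -0.03, 0.06 and -0.05). Leaving out both wild-type libraries numbered 2 left 2 in wild type and 3 in the average. With no filter, 1 was called in wild type (Jun), 3 in Cd69-deficient cells (Jun, Atf3 and Batf3) and 4 in the average (Fos, Jun, Atf3 and Batf3). Batf3, at 1 implied fragment in 2 libraries, was also the 1 called in stem-like cells between genotypes, the 1 averaged over subsets and the 1 in the interaction. Lost calls were those of Fos (adjusted p = 0.0801) and Fosb (0.164) in Cd69-deficient cells, and Fosb (0.14), Fosl2 (0.156) and Batf (0.0702) in the average. The cause of the other changes was not tested. Of 579 results for 29 called differences of other named genes, 543 kept direction and call and 36 lost the call. Equal FPKM sums ended the averaged subset calls of Crem, Nfil3, Mef2a, Elk4, Map2k3, Irf8, Irf4, Nfat5, Dusp5, Zfp36l1, Vim, Il2ra, Cd68 and Pecam1. Bach2, Cebpb, Cyr61, Egr3, Plaur and Csf2 stayed called with that scaling.

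Differences that changed direction, none of them called, were with equal FPKM sums Fos between genotypes in stem-like cells (-0.11), Batf between genotypes in term-diff cells (-0.11), Fosl2 and Jund in Cd69-deficient cells (-0.019 and -0.29) and Atf3 in wild type (0.082). With that scaling, Fos, Batf and Fosl2 still lay above the medians of all genes given above, as they did as deposited. With quantile normalization Jund turned to -0.024 in wild type, -0.15 in Cd69-deficient cells and -0.086 in the average. Leaving out 1 library in turn, Fosb in wild type ran from -0.47 to 0.041 (turned without wild-type stem-like replicate 2), Atf3 in wild type from -0.10 to 0.050 (turned without replicate 2 of either wild-type group) and Jund in Cd69-deficient cells from -0.034 to 0.18 (turned without Cd69-deficient stem-like replicate 2 or term-diff replicate 1). Without both wild-type libraries numbered 2, Atf3 in wild type was 0.10 and Maff -0.0044.

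Over all genes, counts of calls ran from 153 to 1876 in wild type (1278 as reported), 71 to 1441 in Cd69-deficient cells (924), 252 to 2766 in the average (2001), 4 to 53 (15) and 3 to 122 (19) between genotypes in stem-like and term-diff cells, 18 to 134 averaged over subsets (53) and 2 to 105 in the interaction (3). The share of calls that were higher shifted from 55.4% in wild type to 48.1% with median-of-ratios scaling, and in the average from 51.5% to 38.9% with equal sums. Between genotypes it shifted in stem-like cells from 26.7% to 58.5% with equal sums and 14.3% with quantile normalization, in term-diff cells from 57.9% to 46.2% with median-of-ratios scaling and 33.3% with quantile normalization, and in the interaction from 66.7% to 41.2% with equal sums. The labels do not say whether same-numbered libraries share a mouse, and their deviations correlated at -0.297 to 0.152, so they were not treated as pairs. With the replicate block the factors called were 4 in wild type, 3 in Cd69-deficient cells, where Fosb was lost (adjusted p = 0.0544), and 6 in the average. Depth limits Atf3, Maff and Batf, with as few as 16, 18 and 31.9 implied fragments.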

Other observations

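Jdp2, an AP-1 repressor gene that lies near Fos and Batf, was singled out after its values were seen. It had 11.8 to 12.2 FPKM in Cd69-deficient and 9.53 to 10.7 in wild-type term-diff libraries, and 8.54 to 8.65 in Cd69-deficient and 11.9 to 13.8 in wild-type stem-like libraries. The libraries were separated by genotype in opposite directions in the 2 subsets, with an interaction of 0.76 (limma, adjusted p = 0.54), which did not pass the adjusted threshold. The share of all genes separated in this way was not counted.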
